A study of Mus musculus with 6 samples.

Results

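Msr1 and 8 related scavenger receptor genes were examined in macrophages from MSR1 KO and MSR1 WT mice. The genes were taken by symbol from the deposited table of 52550 genes: the class A receptors Msr1, Marco, Colec12, Scara3 and Scara5, the class B receptors Cd36, Scarb1 and Scarb2, and the class H receptor Stab1. All 9 were found, and 8 of them were among the 16402 genes with enough counts to be tested, the exception being Scara5. The question put to the data was whether transcripts of any other receptor were higher where Msr1 was lost.

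RNA-seq was performed on bone marrow-derived macrophages (BMDMs) of MSR1 KO mice (3 libraries) and of MSR1 WT mice (3 libraries), both on the C57BL/6 strain background. In both groups marrow cells were grown in 25 ng/ml M-CSF, the growth factor that drives macrophage differentiation, for 7 days and then shared medium with bone marrow mesenchymal stromal cells (BMSCs) across a transwell membrane for 48 h. The MSR1 KO allele came from an earlier line whose deleted part is not given in the sources used here, and the age of the mice is not given either. The study calls the 3 libraries of a genotype biological replicates, but the labels do not tie each to an animal, so a p-value measures the spread between these libraries.

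Scavenger receptors are surface and lysosomal proteins that bind modified lipoproteins, polyanions, microbes and dying cells. Class A receptors are trimers with a collagen-like stalk, class B receptors cross the membrane at both ends and handle lipids, and stabilin-1, the class H receptor, is a large endocytic protein of macrophages and sinusoidal endothelium. In macrophages they overlap in ligands, and Msr1, Marco and Cd36 all take up particles or modified lipoproteins.

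Total counts ranged from 36143518 to 47417448 per library. At this depth 3 counts, the upper limit taken for a gene with a count of 0, equalled 0.0632 to 0.0835 CPM (counts scaled to the library total), for counting error only. Genes were compared by edgeR's quasi-likelihood test with Benjamini-Hochberg adjustment over all 16402 genes, and a gene was called where its adjusted p was under 0.05. Log2 fold changes are MSR1 KO over MSR1 WT on the scale of normalized counts, with the standard error (SE) and 95% interval of the fit. The median over all tested genes was -0.002. The libraries carried the transcripts of macrophages, with Lyz2 (lysozyme), Csf1r (the M-CSF receptor) and Adgre1 (F4/80) between 2172 and 15870 CPM in every library.

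Msr1 (ENSMUSG00000025044.16; chr8:39581685-39642673 on GRCm38, minus strand), the gene targeted in the knockout, was strongly reduced but still had reads. MSR1 KO replicates 1 to 3 held 2118, 1825 and 2000 counts and MSR1 WT replicates 1 to 3 held 7543, 9163 and 9219, with a wide gap between the genotypes. Scaled to the library, the knockout mean of 49.3 ± 8.51 CPM (SD, n = 3) was 24.7% of the MSR1 WT mean of 199.7 ± 20.9 CPM (SD, n = 3). This was a log2 fold change of -2.02 (SE 0.135, 95% interval -2.33 to -1.71, edgeR adjusted p = 0.00124), which ranked 121 by size among the tested genes. The call held with each of the 6 libraries left out in turn. Counts per gene do not show which exons the remaining reads cover, and the macrophages were measured in bulk, so fewer cells with the transcript and less transcript per cell cannot be told apart.

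None of Marco, Colec12, Scara3, Scarb1, Scarb2, Cd36 and Stab1 was called higher. The fitted log2 fold changes of Scarb2 (0.05) and Colec12 (0.01) were above 0, with intervals that crossed 0. Of the 7 other members tested, 0 were called higher, where 2.25% of all tested genes were, and 2 were called lower, where 2.66% of all tested genes were (4.91% in either direction). The number called higher was also 0 at an unadjusted p under 0.05 and by DESeq2's Wald test, by which 1419 and 720 of the 16402 genes were higher, so that few or no members would be called higher at the rate of all genes. The median log2 fold change of the 7 was -0.23, and the 2 called lower were Stab1 and Cd36. For both, the highest MSR1 KO level was under the lowest MSR1 WT level, as it was for 13.4% of all tested genes. The opposite order, with all MSR1 KO levels above the MSR1 WT range, was found for 12.1% of all tested genes and for 0 of these members (25.5% of all tested genes showed one or the other order). Under the study's definition of a DEG, a fold change above 1.5 with an unadjusted p under 0.05, 0 of the 7 were higher and 0 were lower, against 3.59% and 5.05% of all tested genes (8.64% in either direction), since the falls of Stab1 and Cd36 were under 1.5-fold. The plot of fold changes shows these intervals for each gene.

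**Figure D1:**
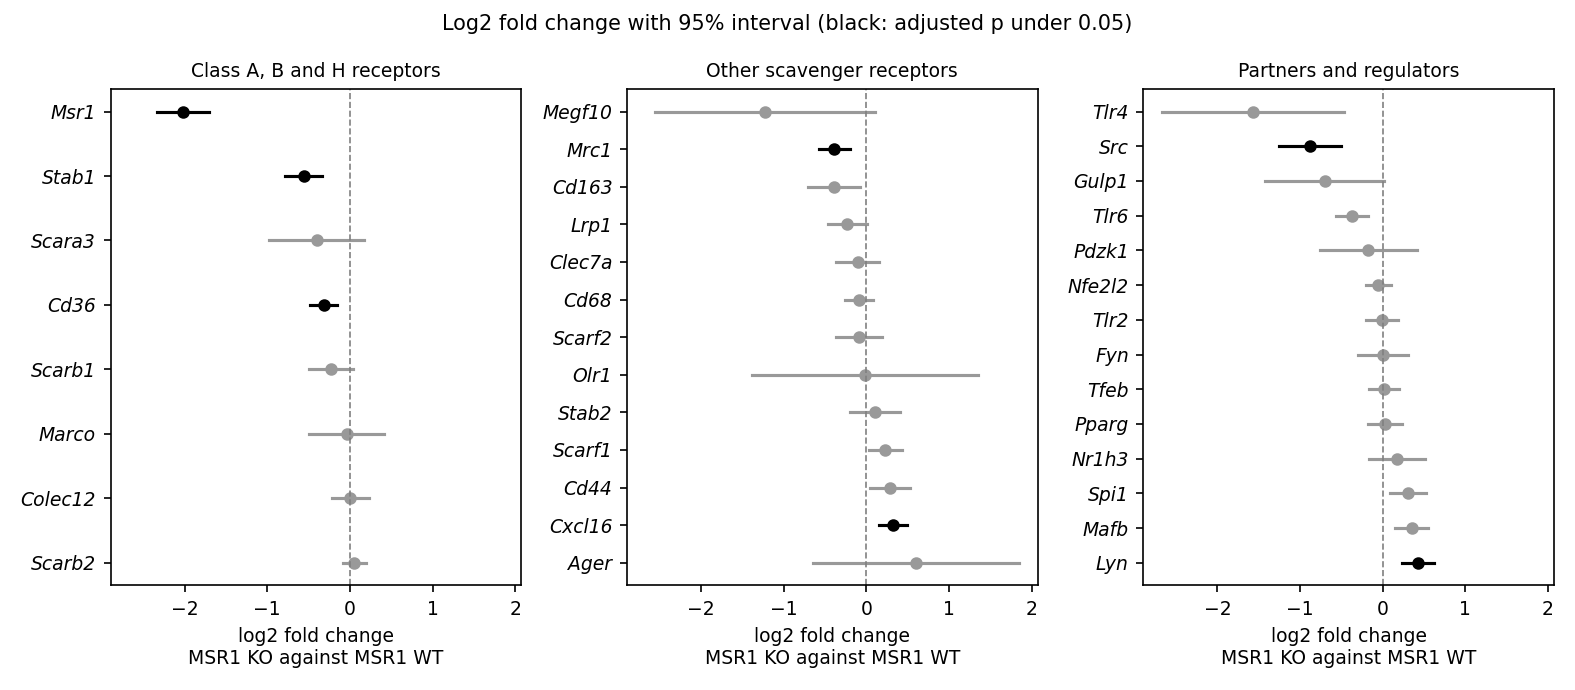
Log2 fold change (MSR1 KO against MSR1 WT, x axis) with its 95% interval for the tested members, other scavenger receptors, and partners and regulators, 3 libraries per genotype; black marks an adjusted p under 0.05 by edgeR. Among the members Msr1 lies at -2.02, Stab1 at -0.56 and Cd36 at -0.32 in black, and the intervals of the other 5 cross 0.

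Marco (ENSMUSG00000026390.7; chr1:120474538-120505024, minus strand), a class A receptor by which macrophages bind bacteria and uncoated particles, is the family member closest to Msr1 in its known use by macrophages. MSR1 KO macrophages held 48.5, 35.0 and 53.1 CPM, and MSR1 WT macrophages 47.4, 57.3 and 35.8 CPM. The groups overlapped, with a low library in each genotype (MSR1 KO replicate 2 and MSR1 WT replicate 3). The log2 fold change of -0.04 (SE 0.197, edgeR adjusted p = 0.941) had a 95% interval of 0.711-fold to 1.33-fold. A rise of Marco above 1.33-fold thus lay outside the interval, and changes within it could not be told from 0.

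Colec12 (ENSMUSG00000036103.8; chr18:9707648-9877995, plus strand), a collectin with a sugar-binding domain that is known from endothelium as well as from phagocytes, was the most even of the class A receptors. Its levels were 58.9, 49.7 and 62.5 CPM in MSR1 KO against 59.6, 55.7 and 55.1 CPM in MSR1 WT. The means of 57.0 ± 6.60 and 56.8 ± 2.42 CPM (SD, n = 3 each) differed by less than the spread between replicates. A log2 fold change of 0.01 (SE 0.0992, 95% interval -0.22 to 0.23, edgeR adjusted p = 0.982) was fitted, which became -0.03 when libraries were scaled by total counts alone.

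Scara3 (ENSMUSG00000034463.4; chr14:65919394-65953935, minus strand), a class A member linked to the response to oxidative stress, was weakly expressed. It had 139, 299 and 256 counts in MSR1 KO and 365, 308 and 287 in MSR1 WT. MSR1 KO replicate 1 was the lowest library and the groups overlapped in CPM. The log2 fold change of -0.40 (SE 0.250, edgeR adjusted p = 0.454) carried a wide interval of 0.509-fold to 1.13-fold. Scara5 (ENSMUSG00000022032.14; chr14:65666403-65764826, plus strand), a ferritin receptor of epithelial and stromal cells, had 0 counts in all 6 libraries, which allows up to 0.0835 CPM in the shallowest library. Any expression of Scara5 was not detectable at this depth in either genotype.

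Added together, the class A receptors other than Msr1 were no higher in MSR1 KO. Their sum was 111.2, 92.3 and 121.1 CPM in MSR1 KO against 115.8, 119.5 and 97.9 CPM in MSR1 WT, and the groups overlapped. The difference of the means was -2.86 CPM, beside a loss of Msr1 itself of -150.5 CPM. This small difference took the other sign without MSR1 KO replicate 2 (5.10 CPM) or without MSR1 WT replicate 2 (1.35 CPM), the libraries of each genotype in which Marco was lowest and highest, respectively.

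Per kilobase of the longest protein-coding transcript, which makes genes of unequal length comparable, all class A receptors with Msr1 summed to 49.8, 39.1 and 48.7 CPM per kb in MSR1 KO and 84.8, 91.6 and 88.8 CPM per kb in MSR1 WT. Of the difference of -42.5 CPM per kb between the means, Msr1 itself made up -41.4, and the others summed to 32.3 ± 5.32 and 33.5 ± 5.63 CPM per kb (SD, n = 3 each). Msr1 made up 62.1% ± 6.10 (SD, n = 3) of class A transcripts in MSR1 WT and 29.7% ± 4.68 (SD, n = 3) in MSR1 KO. Where it was the leading class A transcript in every MSR1 WT library, Marco led in every MSR1 KO library. With all exon bases of a gene as its length, an alternative added after the data had been seen, these shares were 49.1% and 19.8%.

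**Figure D2:**
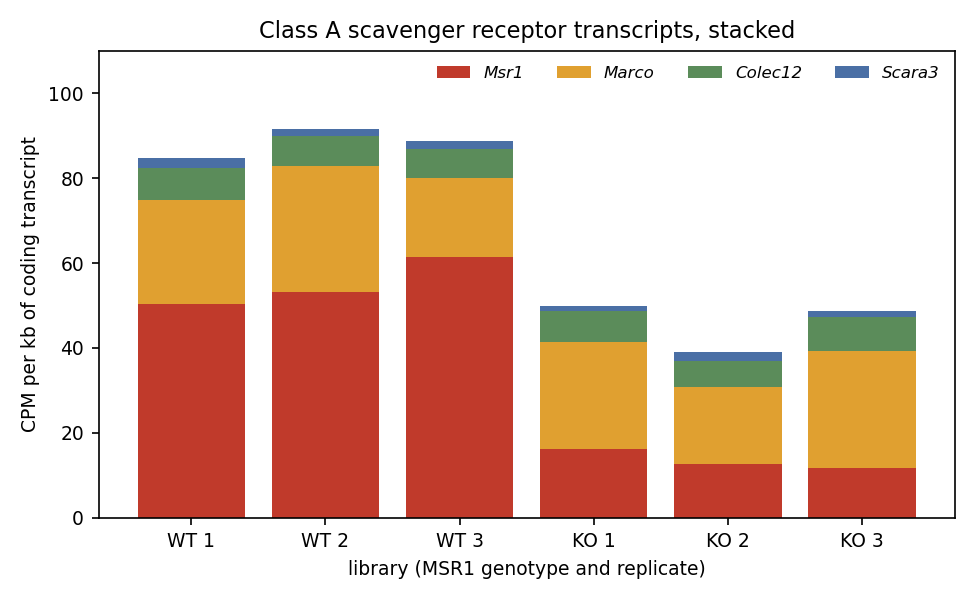
Stacked bars of Msr1, Marco, Colec12 and Scara3 in CPM per kb of coding transcript (y axis from 0), 1 bar per library of MSR1 WT and MSR1 KO macrophages; Scara5 had 0 counts and adds nothing. The totals are 84.8 to 91.6 in MSR1 WT and 39.1 to 49.8 in MSR1 KO, and the Msr1 segment falls from between 50.3 and 61.4 to between 11.8 and 16.2.

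Cd36 (ENSMUSG00000002944.15; chr5:17781690-17888801, minus strand), the class B receptor for long-chain fatty acids and oxidized lipoproteins, was the most abundant member per kilobase and was lower in MSR1 KO. Levels were 1819, 1704 and 1879 CPM in MSR1 KO against 2107, 2415 and 2216 CPM in MSR1 WT, with a gap between the groups. The mean of 1801 ± 88.6 CPM (SD, n = 3) was 80.2% of the MSR1 WT mean of 2246 ± 157 CPM (SD, n = 3). On the log2 scale the change was -0.32 (SE 0.0728, 95% interval -0.49 to -0.15, edgeR adjusted p = 0.0476), only just past the threshold. The call was lost with any 1 library left out (adjusted p from 0.0679 to 0.155) and without a filter on low counts (adjusted p = 0.0694), while the log2 fold change stayed between -0.36 and -0.26.

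Scarb1 (ENSMUSG00000037936.15; chr5:125277087-125341094, minus strand), the HDL receptor, gave no call. Its levels were 47.3, 60.7 and 46.5 CPM in MSR1 KO and 57.2, 62.9 and 61.0 CPM in MSR1 WT. MSR1 KO replicate 2 reached into the MSR1 WT range, and the other two lay below it. Its log2 fold change was -0.23 (SE 0.114, edgeR adjusted p = 0.33), with a 95% interval of 0.711-fold to 1.02-fold.

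Scarb2 (ENSMUSG00000029426.8; chr5:92441314-92506833, minus strand), the lysosomal membrane protein LIMP-2 that sorts a hydrolase to the lysosome, gave the narrowest interval of the members. It stood at 318.5, 326.8 and 315.9 CPM in MSR1 KO and at 297.7, 309.7 and 317.9 CPM in MSR1 WT. The fitted log2 fold change was 0.05 (SE 0.0612, edgeR adjusted p = 0.702), with a 95% interval of 0.942-fold to 1.14-fold. Class B as a whole summed to 2185, 2092 and 2241 CPM in MSR1 KO and 2461, 2788 and 2595 CPM in MSR1 WT, and Cd36 took the largest part of each sum.

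Stab1 (ENSMUSG00000042286.13; chr14:31139013-31168641, minus strand) encodes stabilin-1, which takes up acetylated lipoproteins and matrix proteins and is a known mark of alternatively activated macrophages. It was lower in MSR1 KO, at 1683, 1448 and 1541 CPM against 2335, 2539 and 2002 CPM in MSR1 WT, so that the highest MSR1 KO library stayed under the lowest MSR1 WT library. The mean of 1557 ± 118 CPM (SD, n = 3) was 67.9% of the MSR1 WT mean of 2292 ± 271 CPM (SD, n = 3), a log2 fold change of -0.56 (SE 0.0984, 95% interval -0.78 to -0.33, edgeR adjusted p = 0.0246). It stayed between -0.65 and -0.48 with each library left out, but the call held in only 1 of these 6 fits, that without MSR1 WT replicate 3 (adjusted p from 0.0101 to 0.102 over the 6). Exons of Nt5dc2 cover 1.09% of the exon bases of Stab1.

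Summed over the 8 members other than Msr1, the libraries held 3979, 3632 and 3903 CPM in MSR1 KO and 4912, 5447 and 4694 CPM in MSR1 WT. Nearly all of the difference of -1180 CPM lay in Stab1 (-734.8 CPM) and Cd36 (-445.2 CPM). All values of these members are drawn in the plot of levels per library.

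**Figure D3:**
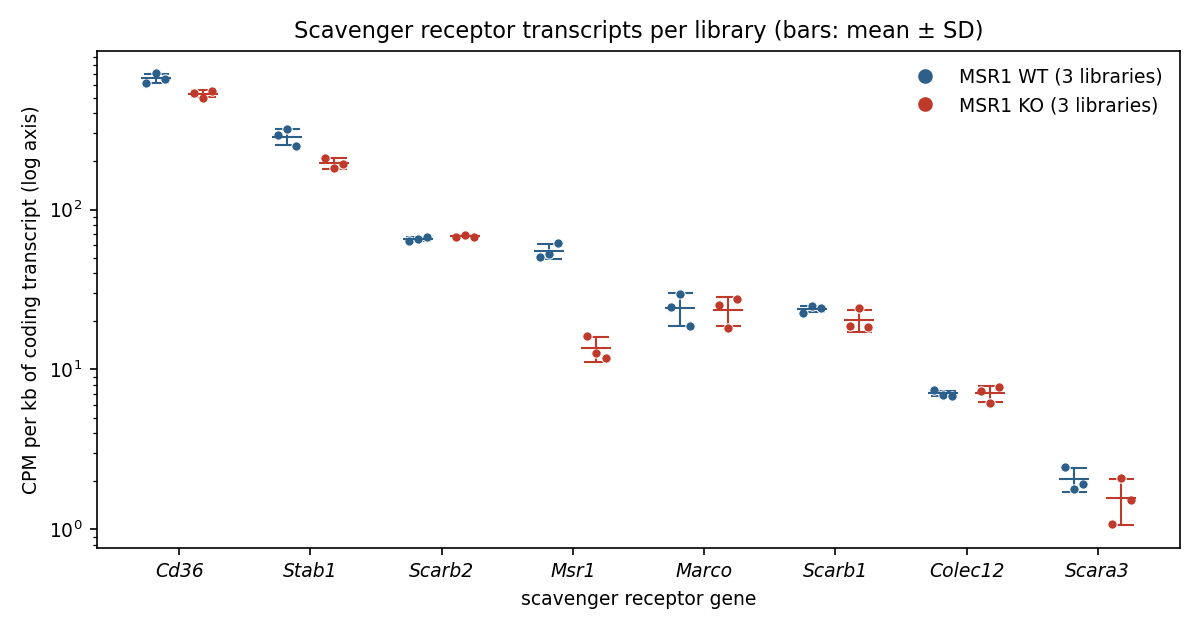
CPM per kb of coding transcript (log axis) for the 8 expressed members in MSR1 WT and MSR1 KO macrophages, with 1 point per library and bars for the mean ± SD of 3 libraries. Msr1 drops from 54.9 to 13.6, Stab1 from 287 to 195 and Cd36 from 661 to 530 with no overlap of the points, while the points of the other 5 overlap.

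On the same scale per kilobase, MSR1 WT macrophages carried Cd36 at 661 ± 46.1, Stab1 at 287 ± 33.9, Scarb2 at 65.7 ± 2.17, Msr1 at 54.9 ± 5.75, Marco at 24.3 ± 5.59, Scarb1 at 23.9 ± 1.15, Colec12 at 7.08 ± 0.302 and Scara3 at 2.07 ± 0.348 CPM per kb (SD, n = 3 each). Neighbours in this order were separated library by library except Marco and Scarb1, whose ranges overlapped. In MSR1 KO, Msr1 at 13.6 ± 2.34 CPM per kb (SD, n = 3) lay below Marco at 23.7 ± 4.87 and Scarb1 at 20.4 ± 3.16 CPM per kb (SD, n = 3 each), with no shared range. The place of Scarb1 depends on the length used. With all exon bases as the length its MSR1 KO level was 6.06 CPM per kb, under that of Msr1 at 7.77 CPM per kb.

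To place the called receptors beside an uncalled one at the sequence level, the 250 bases upstream of the RefSeq start of Stab1, Cd36 and Marco are shown 5′ to 3′ on the gene's strand (GRCm38.p6). Capitals mark GAGGAA, the core letters bound by PU.1, the myeloid transcription factor encoded by Spi1. The windows are chr14:31168642-31168891 for Stab1, chr5:17835897-17836146 for Cd36, which lies within the annotated span of the gene at an internal start, and chr1:120505025-120505274 for Marco, all on the minus strand.
Stab1: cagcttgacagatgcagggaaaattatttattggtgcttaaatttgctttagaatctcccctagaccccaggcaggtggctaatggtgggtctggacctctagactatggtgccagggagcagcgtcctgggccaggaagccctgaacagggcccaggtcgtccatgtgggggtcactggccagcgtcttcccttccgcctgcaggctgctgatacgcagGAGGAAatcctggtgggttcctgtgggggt
Cd36: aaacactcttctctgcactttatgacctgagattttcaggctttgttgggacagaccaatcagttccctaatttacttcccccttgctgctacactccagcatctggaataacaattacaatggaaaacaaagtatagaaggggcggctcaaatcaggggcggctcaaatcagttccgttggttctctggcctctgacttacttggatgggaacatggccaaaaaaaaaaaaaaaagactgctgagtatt
Marco: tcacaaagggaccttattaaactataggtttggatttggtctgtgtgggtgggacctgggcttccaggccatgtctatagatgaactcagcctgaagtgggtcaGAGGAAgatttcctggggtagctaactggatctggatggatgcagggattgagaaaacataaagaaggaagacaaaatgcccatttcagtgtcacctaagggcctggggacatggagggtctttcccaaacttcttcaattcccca

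GAGGAA or its reverse complement TTCCTC occurred once in the windows of Stab1 and Marco and was not found in that of Cd36. Of 32851 RefSeq windows of this length, 23.3% held it on one or the other strand, so a match in this window is a common one. RefSeq windows matched 4 of the 9 members. The remaining one was Scarb2, an uncalled member whose window did not hold the letters on either strand.

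The remaining scavenger receptor classes were read from a list of 15 receptors, of which 13 were tested. Of these, 1 was called higher, 1 lower and 11 were not called, where 2.25% and 2.66% of all tested genes were called higher and lower. The median log2 fold change of the 13 was -0.09. Groups without overlap, in one or the other order, were found for 25.5% of all tested genes. Mrc1, the macrophage mannose receptor CD206, fell from 2112, 1890 and 1808 CPM in MSR1 WT to 1572, 1376 and 1496 CPM in MSR1 KO, with no overlap (log2 fold change -0.39, SE 0.0811, edgeR adjusted p = 0.0369). Its call held in 1 of 6 fits with a library left out, that without MSR1 WT replicate 3. Cxcl16, a transmembrane chemokine that also binds oxidized lipoproteins, rose from 179.6, 159.8 and 173.1 CPM to 202.5, 213.5 and 225.1 CPM (log2 fold change 0.32, SE 0.0751, edgeR adjusted p = 0.0497). It was the one scavenger receptor of either list that was called higher, it lies at the threshold, and the call was lost with any library left out. Cd68, the lysosomal macrosialin and the most abundant receptor of the list at 978 and 1040 CPM per kb in MSR1 KO and MSR1 WT, had a log2 fold change of -0.09 (SE 0.0737, edgeR adjusted p = 0.574).

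Adaptors, co-receptors, cargo, kinases and transcription factors known to act with or on these receptors made a list of which 15 genes were tested. Of these, 1 was called higher, 1 lower and 13 were not called (median log2 fold change 0.005). Over all tested genes 2.25% were called higher and 2.66% lower. All MSR1 KO levels lay above the MSR1 WT range for 4 of the 15 and below it for 2. The shares of all tested genes were 12.1% and 13.4%. Lyn and Src encode kinases of the same family, which has been linked to signalling from Cd36. Lyn rose from 392.0, 401.1 and 428.7 CPM in MSR1 WT to 525.7, 611.6 and 505.1 CPM in MSR1 KO (log2 fold change 0.43, SE 0.086, edgeR adjusted p = 0.0326). Src, a far weaker transcript, fell from 19.4, 21.4 and 22.4 CPM to 14.4, 10.3 and 9.77 CPM (log2 fold change -0.88, SE 0.161, edgeR adjusted p = 0.0267). Neither overlapped between the groups, and on leaving out 1 library the call of Lyn held in 2 of 6 fits (without MSR1 KO replicate 3 or MSR1 WT replicate 3) and that of Src in 1 (without MSR1 KO replicate 1).

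The most abundant regulators per kilobase were Nfe2l2, which encodes the oxidative stress factor NRF2, and Spi1. Nfe2l2 had a log2 fold change of -0.05 (SE 0.0662, edgeR adjusted p = 0.743). Spi1 was at 291.7, 351.7 and 369.3 CPM in MSR1 KO and 262.6, 286.2 and 272.5 CPM in MSR1 WT, without overlap, yet missed the threshold (log2 fold change 0.30, SE 0.0952, edgeR adjusted p = 0.126). Pparg, the nuclear receptor that drives Cd36 in macrophages, was named after its values were seen and had a log2 fold change of 0.03 (SE 0.0886, edgeR adjusted p = 0.898).

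Markers of other cells moved between the genotypes too, and their part in the values above was not tested. For comparison, 2.25% of all tested genes were called higher and 2.66% lower. All MSR1 KO levels lay above the MSR1 WT range for 12.1% of all tested genes. Of 10 stromal markers, 3 were called lower (Pdgfra, Pdgfrb and Cxcl12) and 0 higher, while Thy1 (log2 fold change 1.31, edgeR adjusted p = 0.0907) was above the MSR1 WT range in all MSR1 KO libraries, and the list summed to 1199 to 1575 CPM in MSR1 KO and 1557 to 2012 CPM in MSR1 WT. The collagens Col1a1, Col1a2 and Col3a1 led this list. Of 8 macrophage markers, 1 was called higher (Fcgr1), and the list summed to 22530 to 23690 CPM in MSR1 KO and 22840 to 25420 CPM in MSR1 WT. Of 5 endothelial markers, the leading one, Pecam1, was called higher, with sums of 106.7 to 131 and 66.2 to 103.4 CPM. Neutrophil markers summed to 474.4 to 787.3 CPM in MSR1 KO and 317.1 to 617.5 CPM in MSR1 WT with 0 of 7 called. Sums were 19.1 to 22.9 and 15.4 to 20.2 CPM for B cell markers and 1.93 to 2.67 and 1.41 to 2.72 CPM for dendritic cell markers, with 0 called of the 1 and 3 genes tested in these lists. Xcr1, a dendritic cell gene, averaged 0.737 CPM in MSR1 KO and 0.177 CPM in MSR1 WT. It was above the MSR1 WT range in all MSR1 KO libraries (log2 fold change 2.04, edgeR adjusted p = 0.0596). The other tested genes of its list, Zbtb46 and Flt3, had log2 fold changes of -0.53 and -0.15 (edgeR adjusted p = 0.513 and 0.959). Ms4a1, a defining B cell gene, was at 0 in MSR1 KO and had counts only in MSR1 WT replicate 3.

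Genes whose levels followed those of the called members most closely were ranked by the root mean square difference of centred log2 CPM over the 6 libraries, among 13610 genes with a mean of at least 1 CPM. Nearest to Msr1 were Syt13 (0.0778), a synaptotagmin, Fst (0.17), which encodes follistatin, and Mmp12 (0.201), the macrophage elastase. Their log2 fold changes were -2.02, -1.88 and -2.32. Nearest to Stab1 were Kank2 (0.0411), Cd302 (0.0442), a C-type lectin receptor, and Abcc1 (0.0458), an efflux transporter. Nearest to Cd36 were Trim37 (0.0364), Myo7a (0.0372) and Pqlc1 (0.0431). The likeness is a description over 6 libraries that fall into 2 genotypes.

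**Figure D4:**
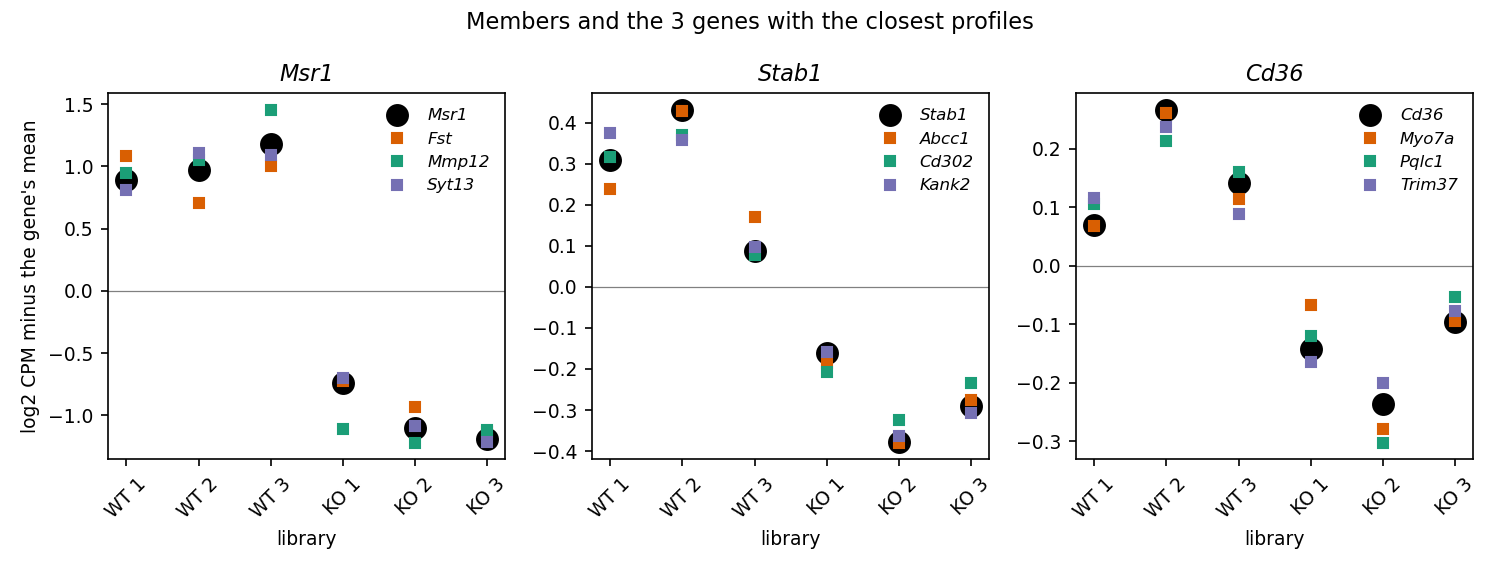
Log2 CPM minus the gene's mean over the libraries (y axis) for Msr1, Stab1 and Cd36 and the 3 genes nearest to each, by library (x axis: MSR1 WT 1 to 3, MSR1 KO 1 to 3). In each panel all MSR1 WT points lie above 0 and all MSR1 KO points below, and the y axes differ, with Msr1 spanning a wider range than Stab1 and Cd36.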

How the data were processed

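Total RNA of macrophages was made into mRNA-seq libraries and sequenced on an Illumina instrument. The submitters' processing notes name fastp 0.17.1, HISAT2 2.1.0, DESeq2 1.18.1 and R 3.4.3, whereas the paper's methods name TopHat for alignment. Neither a build nor a read counter or its handling of strand is named, and these are not given in the sources used here. The authors deposited raw counts per gene and library, which were used here, and a signal per library (counts divided by a size factor), which was not used. The table also holds the authors' log2 fold changes and p-values, which were not used.

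Of the 52550 identifiers, 52403 were found in GENCODE M21 (GRCm38) and 49035 had the same version and position there; that of Colec12 has another version, and its position is that of the deposited table. Where rows shared a symbol, the row with the most counts was kept. Low counts were removed with filterByExpr, TMM factors were applied, and genotype alone was fitted with the quasi-likelihood functions of edgeR 4.0.16 (R 4.3.3). The SE was the absolute log2 fold change divided by the root of the F statistic, and the 95% interval used the t quantile at 6.21 degrees of freedom. CPM are counts scaled to the TMM-adjusted total of the library. Libraries of a genotype differed beyond counting noise (chi-square per degree of freedom from 24.0 to 47.4 between pairs). DESeq2 1.42.0 was an alternative. Promoter windows came from RefSeq (GRCm38.p6), and lengths were those of the longest protein-coding transcript. The procedure was tested on simulated data. Cd163l1 and Lrp2 were below the filter. A few list genes are counted with their list but not reported here by name or drawn.

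The members and lists were chosen with earlier results of these data known. Genes named were all members, and of the 2 further receptor and partner lists each called gene and the 2 most abundant per kb. Of the macrophage, stromal and dendritic cell lists the 3 most abundant were named, and of the endothelial list the most abundant. The neutrophil and B cell lists were given as sums and counts. The 3 nearest profiles of each called member were also named. Pparg, Tlr4, Fcgr1, Pdgfra, Pdgfrb, Cxcl12, Thy1, Ms4a1 and Nt5dc2 were named outside this rule.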

Additional observations from a re-analysis of the deposited data

How the results depend on the processing

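The fall of Msr1 kept its direction and call under all alternatives run, and members called higher stayed at 0 in each. The calls of Cd36 and Stab1 did not hold throughout. Without a filter on low counts, where more genes enter the adjustment, Cd36 (-0.32, adjusted p = 0.0694 by edgeR) lost its call, leaving 1 member called lower (Stab1), 1 other scavenger receptor (Mrc1) and 1 partner (Src). With the replicate number as a block, the log2 fold changes were -0.32 for Cd36 (edgeR adjusted p = 0.125) and -0.55 for Stab1 (edgeR adjusted p = 0.064), and the members called lower, other receptors and partners called each fell to 0. The labels do not say whether same-numbered libraries were prepared together. Their deviations correlated at -0.026, 0.019 and -0.005, against -0.034 to 0.037 for libraries of unlike number. With 3 libraries per genotype these values cannot decide whether the numbers mark pairs. The block lowered the calls over all genes from 369 higher and 436 lower to 59 and 78. Under the study's DEG definition, members called lower and other receptors called were 0. Partners called were 2, both lower, namely Src and Tlr4. Tlr4 had the largest change of its list (log2 fold change -1.57, edgeR adjusted p = 0.115). Its groups overlapped, with MSR1 WT replicate 2 at 36.3 CPM and MSR1 KO replicate 1 at 49.1 CPM. With library size alone, other receptors called were 1 (Mrc1) and Colec12 turned to -0.026. DESeq2 called 4 partners in place of 2, and 720 genes higher and 848 lower. With all exon bases as gene length, a choice made after seeing the data, Msr1 was 19.83% of class A in MSR1 KO and 49.06% in MSR1 WT. The cause of these differences was not tested.

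With each library left out, log2 fold changes ranged from -0.36 to -0.26 for Cd36, -0.65 to -0.48 for Stab1, -0.061 to 0.096 for Colec12 and -0.20 to 0.13 for Marco, and the class A sum without Msr1 differed by -9.46 to 5.10 CPM. Members called lower, other receptors called and partners called each ranged from 0 to 1. Calls over all genes ranged from 18 to 407 higher and 53 to 372 lower, the lowest without MSR1 WT replicate 1. At Scara3's counts of 139 to 365 per library, the interval spans from 0.509-fold to 1.13-fold.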
